A study of Homo sapiens with 26 samples.

Results

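The comparison described here is the response of BxPC3 cells to induction of the P1-a2 isoform of HNF4A, set against cells of the same line that carried an empty vector. It rests on 4 of the 26 libraries in the series: 2 labelled P1-a2 and 2 labelled NC, chosen by cell line and construct. BxPC3 is an established human pancreatic ductal adenocarcinoma line. Both groups were grown in RPMI-1640 with serum and received doxycycline at 500 ng/mL, the agent that switches the construct on, so the drug itself was present in the controls too. A further pair of BxPC3 libraries, in which doxycycline at the same dose induced the isoform P2-a8, entered the fit to estimate the spread between libraries. The second line with a P1-a2 arm, Panc10.05, was induced at 25 ng/mL and has a GFP construct at the same dose as its control. Its P2-a8 libraries, at 12.5 ng/mL, entered the fit of that line only for the spread. RNA was poly(A)-selected and sequenced in pairs of reads on a NovaSeq, and reads were counted per gene by the authors. Nothing in the labels says that the libraries of a group came from separate cultures, so p-values measure only the spread between these libraries, which may be technical.

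HNF4A is a nuclear receptor that binds DNA as a homodimer and drives genes of liver, intestine, kidney and pancreatic islets. Its gene is read from a pair of promoters, P1 and P2, whose products differ at the amino terminus. In gut and liver the receptor is known for genes of lipoprotein secretion, nutrient absorption, gluconeogenesis and clotting, and in pancreatic carcinoma it is treated as a factor of the epithelial, better differentiated state.

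The induced gene was read first, as the check of the labels. HNF4A (ENSG00000101076, chr20:44355700-44434596 on the plus strand, GENCODE v29 on GRCh38) had 9.76 and 11.6 CPM (counts scaled by the effective size of the library) in the P1-a2 libraries and 1.08 and 0.464 in the NC libraries. The P1-a2 libraries were the higher ones, and the groups did not overlap. The fitted log2 fold change was 3.86 (SE 0.26, adjusted p = 1.69e-06, edgeR quasi-likelihood test). It was 4.51 without NC replicate 1 and 3.30 without NC replicate 2, as the 2 NC libraries differed and both were low. The P2-a8 libraries held 12.6 and 14.2 CPM of the same gene. Counts per gene do not separate P1 from P2 transcripts or the construct from the cell's own gene. Its paralog HNF4G fell by 0.99 on the log2 scale (SE 0.18, adjusted p = 0.00139), from 7.66 and 6.58 CPM in NC to 4.14 and 3.03 under P1-a2. The antisense gene HNF4A-AS1, which overlaps HNF4A, was too low to be tested.

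Library totals in BxPC3 ran from 26369154 to 37483772 counts, and the share of counts from the mitochondrial genome was 5.70% and 5.73% under P1-a2 and 6.17% and 6.29% in NC. Markers of pancreatic duct epithelium summed to 10330 and 11040 CPM under P1-a2 and 8044 and 7793 in NC. Of the 10 duct markers tested, 5 were higher and 3 lower at an adjusted p under 0.05 (edgeR quasi-likelihood test). Their median log2 fold change was 0.116, so the rise of the sum was not shared by all of them. The 13 acinar markers stayed below 5 CPM in sum in all 4 libraries, with 7 of them at 0 in all 4, and the 11 leukocyte markers stayed below 8 CPM in sum. Markers of enterocytes, the absorptive cells of the small intestine, behaved otherwise. Their sum was 318 and 377 CPM under P1-a2 against 0.967 and 1.06 in NC, and 3 of the 12 were at 0 in all 4 libraries. Of the 7 that passed the filter on low counts, 5 had fewer than 10 counts in each NC library and passed it through the induced groups, so their rise was largely fixed by the filter. The other 2 were higher too. Hepatocyte markers summed to 81.2 and 97.3 CPM against 1.45 and 1.06, and most of the P1-a2 sum was APOA1, described below. Of the 12, 5 passed the filter, and 4 of these had fewer than 10 counts in each NC library. Of those 4, 3 were higher, and the other 1 of the 5 was not. These 2 marker lists share genes with the lipoprotein and brush border lists below and are not separate evidence. In bulk RNA, more cells of a kind and more RNA per cell cannot be told apart.

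A large part of the genes tested differed between the P1-a2 and NC libraries. Of 17635 genes tested, 5652 (32%) passed an adjusted p of 0.05 in edgeR's quasi-likelihood test, 3016 higher (17.1%) and 2636 lower (14.9%), and a gene is called higher or lower below only on that rule. Most changes were small: the median log2 fold change was 0.50 among genes called higher and -0.46 among genes called lower. Among large changes the rises outnumbered the falls, and more so at higher limits. At a fold change of 2 or more, 833 genes were higher (4.72%) and 409 lower (2.32%). At 8-fold or more the counts were 284 and 10, and at 64-fold or more 121 and 1. Of the genes called higher, 302 had fewer than 10 counts in each NC library, so the size of their rise is known only roughly. There were 42 genes with 0 counts in both NC libraries and at least 1 CPM under P1-a2, and 0 genes with the opposite pattern. Protein-coding genes made up 13582 of the genes tested, and 38.35% of them were called.

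**Figure D1:**
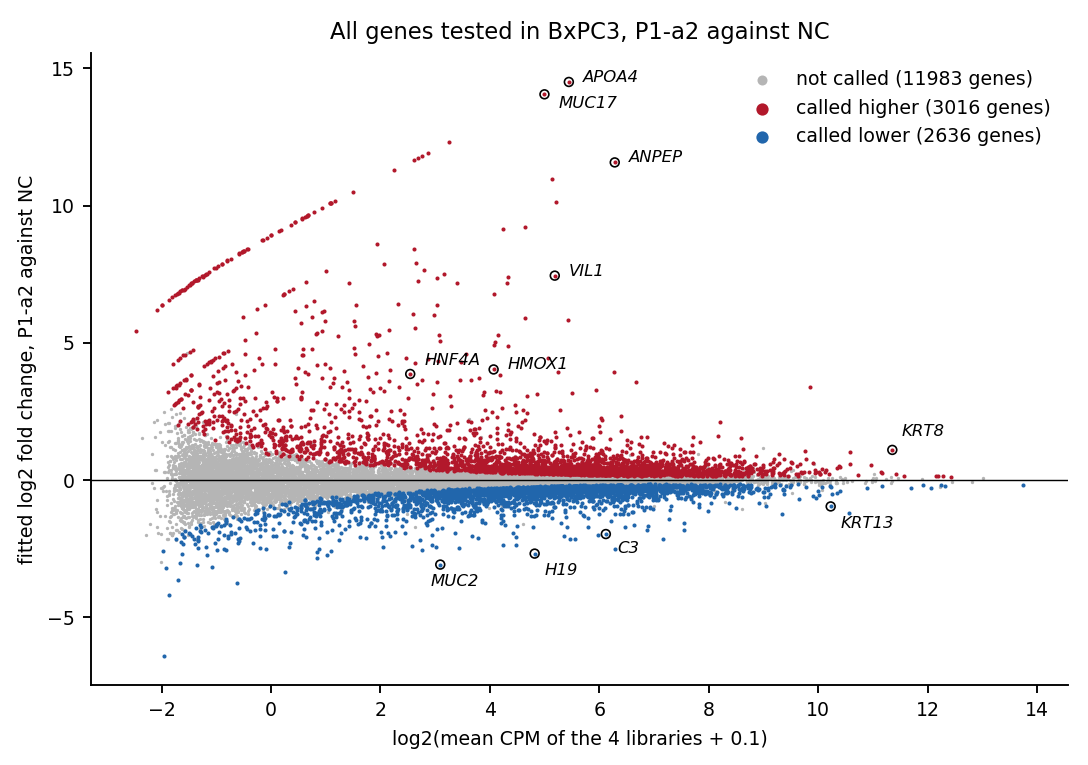
Fitted log2 fold change of each gene tested (y axis) against log2 of its mean CPM over the 4 libraries plus 0.1 (x axis), with genes called higher in red, called lower in blue and others in grey. The diagonal line of red points at the upper left is made of genes with 0 counts in both NC libraries, whose fitted fold change follows their level under P1-a2 and is not a measured ratio. Rises reached far larger values than falls.

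The largest rises included genes of 4 apolipoproteins, the protein coats of lipid particles made by liver and small intestine. APOA4 had 81.7 and 92.0 CPM in the P1-a2 libraries and 0 counts in both NC libraries, at least 897-fold higher when each NC library is set at 3 counts. MUC17, a transmembrane mucin of the enterocyte surface, had 53.0 and 74.3 CPM against 0 counts (at least 658-fold). CLRN3, which codes for a tetraspan membrane protein, had 16.6 and 21.2 CPM against 0 counts (at least 195-fold). No NC library came near the P1-a2 values for these genes. PRAP1, a secreted lipid-binding protein of the gut, was at least 149.6-fold higher, APOA2 at least 138-fold, APOB at least 131-fold and RBP2, the retinol carrier of enterocytes, at least 124-fold. In these 7 of the 15 largest rises, both NC libraries held 0 counts.

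The other large rises started from traces. ANPEP, the brush border aminopeptidase N, had 140.0 and 171 CPM under P1-a2 and 3 counts over both NC libraries, a ratio of 3313 (95% counting interval 1133 to 16067). APOA1, the main protein of high-density lipoprotein, had 64.2 and 75.2 CPM against 2 NC counts, a ratio of 2227 (95% counting interval 616 to 18393). HHLA2, a member of the B7 family of immune checkpoint ligands, had 43.0 and 56.3 CPM under P1-a2 and 0.0744 and 0.0819 in NC, with a log2 fold change of 9.23 (adjusted p = 1.79e-09, SE 0.26). The remaining genes were the organic anion carrier SLCO2B1 (68.1 and 79.3 CPM against 0.112 and 0.0273), the monoacylglycerol acyltransferase MOGAT3 (31.5 and 43.2 against 0.149 and 0), the cytochrome P450 CYP1A2 (11.1 and 12.98 CPM against 2 NC counts, a ratio of 385 with a 95% counting interval of 106 to 3180), the RNA-binding protein RBPMS2 (11.7 and 12.9 CPM against 3 NC counts, a ratio of 262 with a 95% counting interval of 89.3 to 1272) and C2orf88 (13.8 and 13.4 against 0.0372 and 0.0819). For each of these 5, the NC level rests on 2 to 4 counts in all, so the size of the rise is known only roughly. Without NC replicate 1 and without NC replicate 2, the fitted log2 fold change was 13.3 and 7.93 for MOGAT3, 11.7 and 7.26 for CYP1A2, 11.2 and 9.31 for SLCO2B1 and 7.16 and 11.7 for RBPMS2. It was 10.8 and 15.3 for ANPEP and 10.2 and 14.2 for APOA1, and 8.36 for C2orf88 without NC replicate 2. APOA4 (chr11:116820700-116823306), APOC3 (chr11:116829706-116833072) and APOA1 (chr11:116835751-116837950) are neighbours on chromosome 11, and all of them rose: APOC3, an inhibitor of lipoprotein lipase, went from 0 counts to 9.13 and 9.46 CPM.

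**Figure D2:**
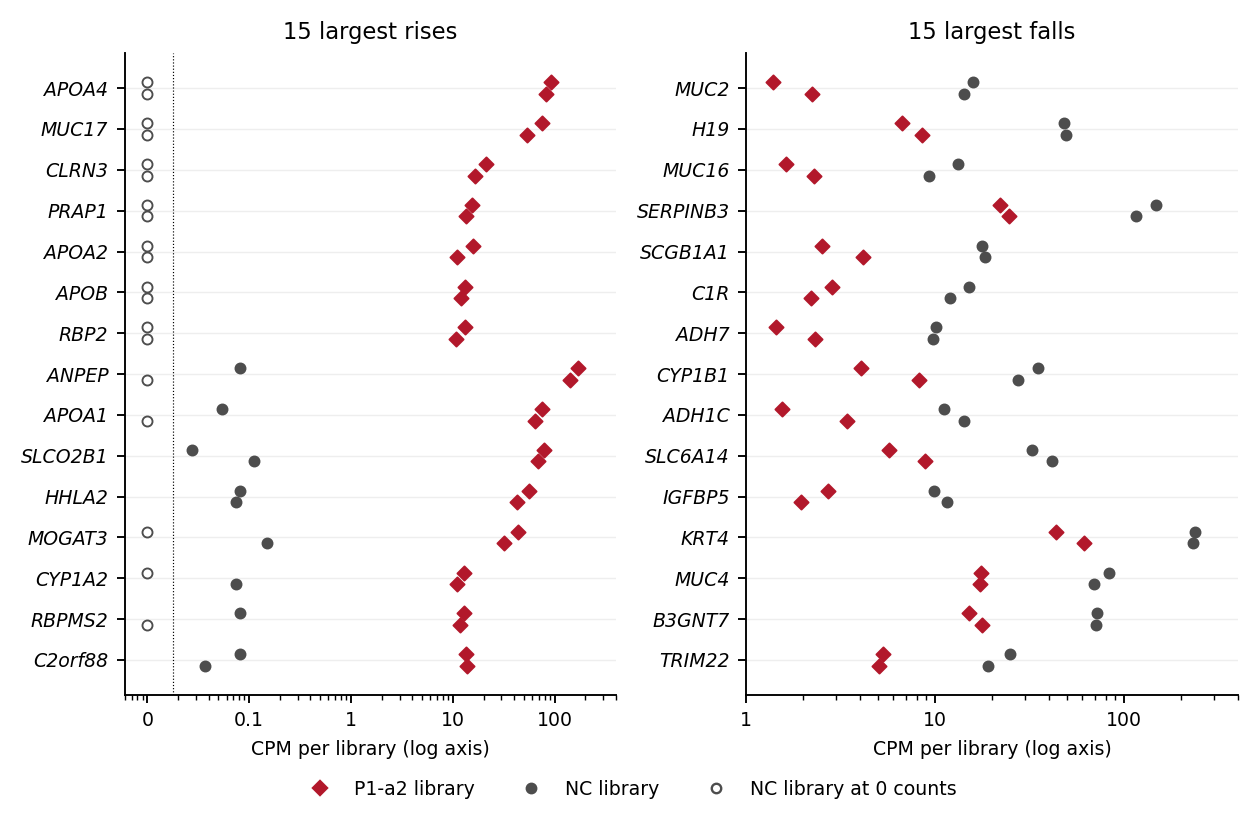
CPM of each P1-a2 library (red diamonds) and NC library (grey circles) for the 15 largest rises (left) and the 15 largest falls (right), on log axes that differ between the panels. Open circles left of the dotted line are NC libraries with 0 counts. No P1-a2 library overlapped an NC library in any of the 30 genes, which the rule for choosing them required.

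Promoters are shown for 4 of the largest rises, those whose window holds the core letters of an HNF4A response element. The windows run from 250 bases before to 50 after the RefSeq start site on GRCh38.p14, and both strands were searched for CAAAGNNCA. Of the 15 largest rises, 11 had a window in the table and 4 held the letters, and of the 15 largest falls 12 had a window and 1 held them. Among all 27305 windows, 1435 (5.26%) held them. With under 80% of the rises in the table, the shares are not compared, and a match is a description of letters, not of a bound site. The stricter form CAAAGTCCA was in none of the windows of these 30 genes and in 0.359% of all windows. The match is in capitals, written on the gene's own strand.
CLRN3 (chr10:127892892-127893191, minus strand, match 49 bases before the start): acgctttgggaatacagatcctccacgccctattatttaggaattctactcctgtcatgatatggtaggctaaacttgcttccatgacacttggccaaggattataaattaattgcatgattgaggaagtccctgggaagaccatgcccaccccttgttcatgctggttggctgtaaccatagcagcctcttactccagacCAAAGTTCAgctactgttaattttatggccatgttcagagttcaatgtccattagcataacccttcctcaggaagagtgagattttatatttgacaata
MOGAT3 (chr7:101200987-101201286, minus strand, match 45 bases before the start): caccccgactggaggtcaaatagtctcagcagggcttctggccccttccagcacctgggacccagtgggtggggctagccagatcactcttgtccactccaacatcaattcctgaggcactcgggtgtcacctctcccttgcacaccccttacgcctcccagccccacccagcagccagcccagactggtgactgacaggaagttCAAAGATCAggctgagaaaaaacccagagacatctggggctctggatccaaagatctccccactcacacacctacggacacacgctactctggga
MUC17 (chr7:101019831-101020130, plus strand, match 149 bases before the start): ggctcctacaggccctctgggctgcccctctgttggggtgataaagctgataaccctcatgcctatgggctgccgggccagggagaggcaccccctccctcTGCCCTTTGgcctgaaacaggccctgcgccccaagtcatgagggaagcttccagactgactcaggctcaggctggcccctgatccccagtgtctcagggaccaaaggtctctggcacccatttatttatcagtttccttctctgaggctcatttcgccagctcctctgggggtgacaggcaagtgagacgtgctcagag
RBP2 (chr3:139476467-139476766, minus strand, match 80 bases before the start): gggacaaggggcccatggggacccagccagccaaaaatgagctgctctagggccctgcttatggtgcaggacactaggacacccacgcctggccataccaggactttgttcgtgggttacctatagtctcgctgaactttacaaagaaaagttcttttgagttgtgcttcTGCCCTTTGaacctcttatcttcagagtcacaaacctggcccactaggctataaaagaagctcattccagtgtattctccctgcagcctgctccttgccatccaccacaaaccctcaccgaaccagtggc
The matches of CLRN3, MOGAT3 and RBP2 lie within 100 bases of the start site, and that of MUC17 lies farther upstream.

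Genes that build lipoproteins were also called higher more often than lower. Of 23 tested members of the list of apolipoproteins and lipoprotein assembly, 13 were higher and 3 lower, against 17.1% and 14.9% of all genes tested, but 9 of the 23 had fewer than 10 counts in each NC library and passed the filter on low counts through the induced groups. Of the other 14, 5 were higher. MTTP, the transfer protein that loads lipid onto APOB, had 7.06 and 6.70 CPM under P1-a2 and 0.372 and 0.519 in NC, a log2 fold change of 3.91 (adjusted p = 1.21e-06, SE 0.26). ANGPTL4, a secreted inhibitor of lipoprotein lipase, rose by 3.21 on the log2 scale (SE 0.16). Enzymes that make triglyceride were among the rises. Of 30 tested genes of fatty acid uptake and triglyceride storage, 14 were higher and 4 lower. Of the 30, 3 had fewer than 10 counts in each NC library and passed the filter through the induced groups. All 3 were higher, and of the other 27, 11 were higher. DGAT2, which adds the last acyl chain, had 60.5 and 72.2 CPM against 13.02 and 9.97 (log2 fold change 2.54, SE 0.13, adjusted p = 1.12e-06), and the lipid droplet protein CIDEC had 2.42 and 3.49 CPM against 0 counts (at least 30.5-fold). ACSL5, which activates fatty acids, rose by 1.38 (SE 0.08). The count of 4 lower members fell to 2 without P1-a2 replicate 1 and to 1 without any other of the 4 libraries.

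Most tested genes of the brush border, the carpet of microvilli on absorptive cells, were called higher. Of 27 tested members, 20 were higher and 1 lower, and of the 18 with at least 10 counts in an NC library, 12 were higher. VIL1, which bundles the actin core of microvilli, had 64.6 and 79.8 CPM under P1-a2 against 0.521 and 0.328 in NC, a log2 fold change of 7.45 (adjusted p = 8.88e-07, SE 0.28). Both NC libraries were below 1 CPM, and the groups lay more than 100-fold apart. The motor MYO1A rose by 5.28 (SE 0.28). Members of the complex that ties microvilli together started from 0 counts: MYO7B reached 3.76 and 4.35 CPM (at least 41.9-fold) and ANKS4B 3.11 and 2.92 CPM (at least 31.1-fold). VILL, a villin relative, was the member that fell (-0.75, SE 0.068).

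Several hydrolases that work on this surface rose. Of 20 tested brush border and secreted digestive enzymes, 13 were higher and 3 lower, and of the 12 with at least 10 counts in an NC library, 5 were higher. DPP4, which clips dipeptides from peptide hormones, rose by 3.35 (SE 0.25, adjusted p = 3.03e-06) from 0.595 and 0.765 CPM to 5.80 and 8.30. XPNPEP2, a membrane aminopeptidase, had 3.33 and 3.89 CPM against 0 counts (at least 37.3-fold). The aspartic protease CTSE fell by 1.12 (SE 0.18).

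Of 28 tested intestinal and hepatic solute carriers, 14 were higher and 2 lower. But 4 of the 28 had fewer than 10 counts in each NC library and passed the filter through the induced groups. All 4 were higher, and of the other 24, 10 were higher. SLC15A1, the intestinal carrier of dipeptides and tripeptides, had 34.8 and 43.3 CPM under P1-a2 against 0.149 and 0.355 in NC, a log2 fold change of 7.17 (SE 0.25) that came to 7.995 without NC replicate 2. SLC7A7, a basolateral carrier of cationic amino acids, rose by 4.93 (SE 0.18). The fall was in SLC6A14, an amino acid carrier of tumour cells and airway (41.5 and 32.5 CPM in NC, 8.88 and 5.68 under P1-a2, log2 fold change -2.35, SE 0.35), and in SLC26A9, a chloride channel of stomach and airway (-2.60, SE 0.30). Among 12 tested ABC transporters, 3 were higher (5 without P1-a2 replicate 1) and 3 lower. ABCC6, an exporter of the liver, rose by 3.58 (SE 0.19) and the drug efflux pump ABCG2 by 3.10 (SE 0.13).

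Genes of iron and copper handling were called more often than all genes in both directions, and higher more often than lower. Of 23 tested, 10 were higher and 6 lower, against 17.1% and 14.9% of all genes tested. SLC40A1, the ferroportin that exports iron, had 64.1 and 77.9 CPM against 4.91 and 4.37 (log2 fold change 3.94, SE 0.12, adjusted p = 3.28e-09). HEPH, the copper oxidase that works with it at the basolateral side, had 10.04 and 13.5 CPM against 0.149 and 0.191 (6.06, SE 0.32). HMOX1, which degrades heme, had 28.3 and 34.5 CPM against 1.97 and 1.88 (4.03, SE 0.15, adjusted p = 1.26e-08), and the ferritin light chain FTL, an abundant transcript, rose by 0.57 (SE 0.051). All 4 of these genes had both P1-a2 libraries above both NC libraries, as did 32.5% of all genes tested.

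Most genes of cholesterol synthesis rose, and 0 were called lower. Of 24 tested genes, 17 were called higher, and the median log2 fold change was 0.47. TM7SF2, a sterol reductase late in the pathway, had 40.4 and 47.4 CPM under P1-a2 and 15.7 and 15.9 in NC (1.48, SE 0.10, adjusted p = 1.41e-06). MSMO1, a sterol demethylase, rose by 1.17 (SE 0.11), DHCR7, which closes the pathway, by 1.02 (SE 0.10), SQLE, the epoxidase that oxidises squalene, by 0.89 (SE 0.078) and HMGCS1, which makes the first committed precursor, by 0.87 (SE 0.098). The span of TM7SF2 overlaps that of VPS51 on the same strand. Of 17 genes of fatty acid synthesis and desaturation, 7 were higher and 1 lower. MLXIPL, the glucose-responsive activator of lipogenic genes, rose by 4.60 (SE 0.25) from 1.004 and 0.874 CPM to 17.8 and 27.4. The desaturase FADS1 rose by 1.03 (SE 0.12). SREBF1, the sterol-sensing activator of lipid synthesis, was the member that fell, from 636 and 609 CPM to 387 and 423 (-0.62, SE 0.057). SCD, the stearoyl desaturase, had a log2 fold change of 0.21 (adjusted p = 0.0887, SE 0.082; 2.64e-04 without the filter on low counts, 0.00768 without P1-a2 replicate 1).

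Genes that burn fat or make glucose also had more rises than falls. Of 28 tested genes of fatty acid oxidation and ketogenesis, 16 were higher and 2 lower (1 lower without P1-a2 replicate 2 or NC replicate 2). SLC25A20, which carries acylcarnitine into mitochondria, rose by 2.13 (SE 0.12, adjusted p = 2.78e-07) from 4.61 and 4.64 CPM to 20.05 and 20.4. CPT1A, the gate of mitochondrial oxidation, rose by 0.39 (SE 0.058). In the gluconeogenesis and glycogen list, 10 of 20 tested members were higher and 3 lower (1 lower without either P1-a2 library or without NC replicate 1). Of these 20, 3 had fewer than 10 counts in each NC library and passed the filter through the induced groups. All 3 were higher, and of the other 17, 7 were higher. PCK1, the enzyme that commits carbon to glucose, had 2.29 and 2.43 CPM against 0 counts (at least 24.4-fold). FBP1 rose by 2.99 (SE 0.26) from 1.64 and 0.901 CPM to 10.8 and 8.84. Of 25 glycolysis genes, 11 were higher and 3 lower, with 7 higher without NC replicate 1, without NC replicate 2 or without P1-a2 replicate 2. LDHA, lactate dehydrogenase A, rose by 1.08 (SE 0.067).

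**Figure D3:**
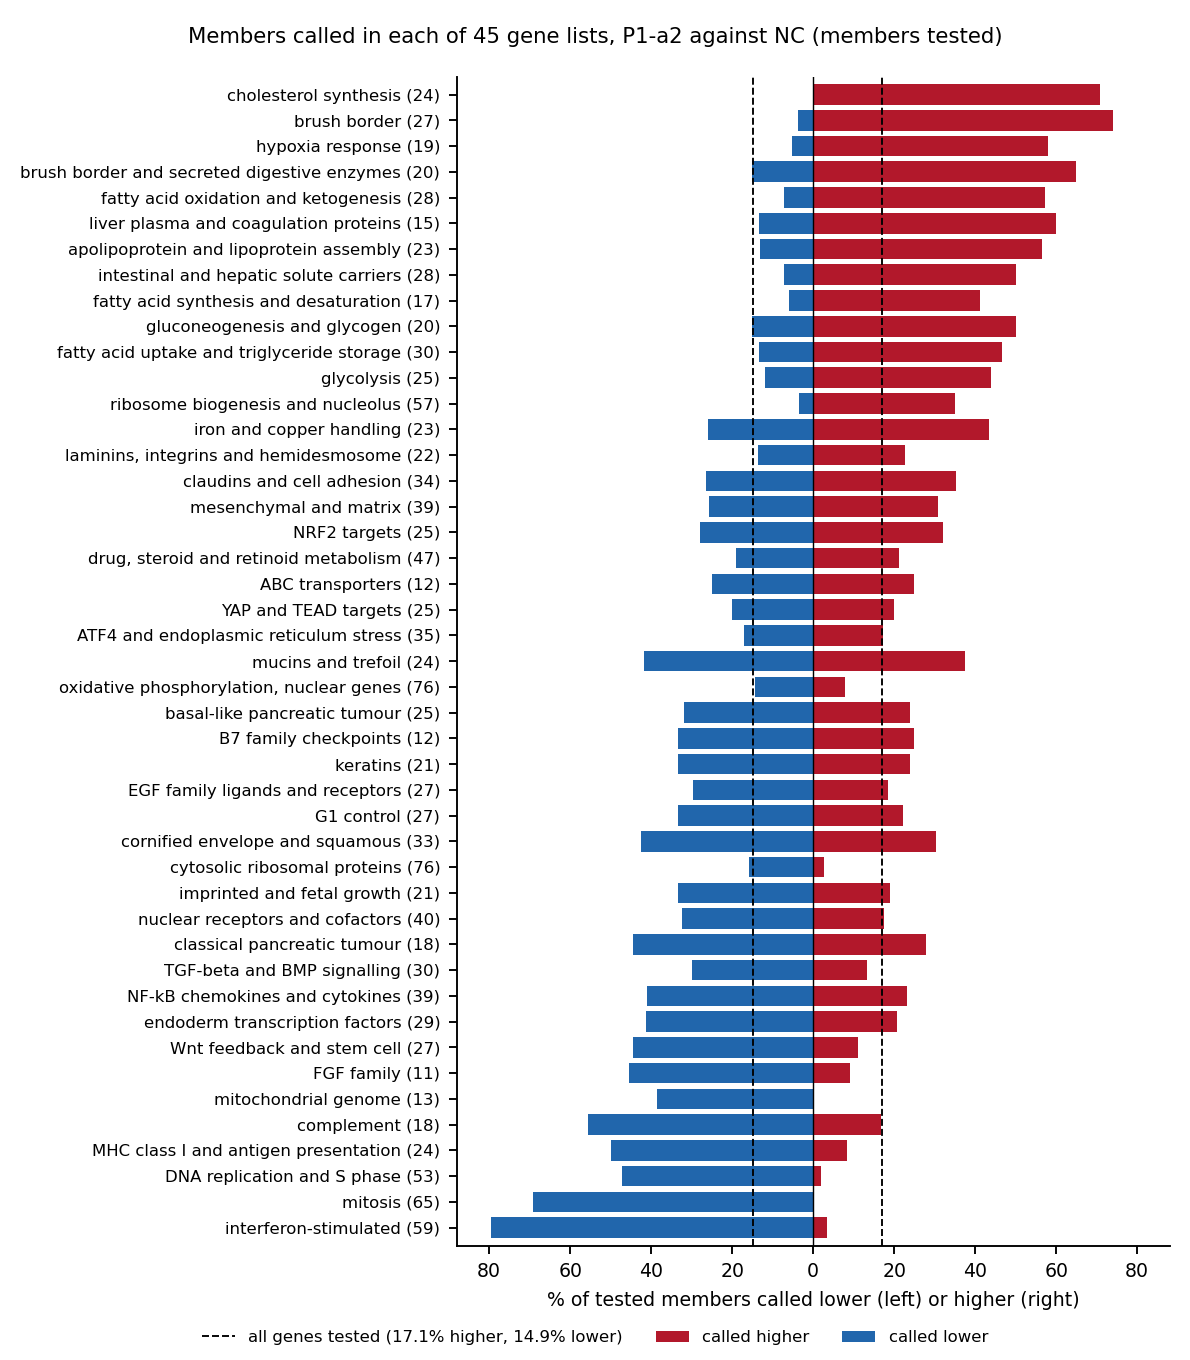
Share of tested members called higher (red, right) and called lower (blue, left) in each of 45 gene lists, with the number tested in parentheses and dashed lines at the shares over all genes tested (17.1% and 14.9%). Lists of the brush border, cholesterol and lipoproteins lie at the top and the interferon and mitosis lists at the bottom. Lists share members and were chosen with earlier results of these data known.

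Liver secretory genes responded in part. Of 55 plasma and coagulation proteins, only 15 were expressed enough to be tested and 17 had 0 counts in all 4 libraries. Of the 15, 9 were higher and 2 lower, but 6 had fewer than 10 counts in each NC library and passed the filter through the induced groups. Of the other 9, 4 were higher. SERPINA1, the antitrypsin of plasma, had 5.18 and 5.51 CPM against 0.223 and 0.164 (4.79, SE 0.24, adjusted p = 1.51e-07), and the adhesion protein VTN had 1.91 and 2.22 CPM against 0 counts (at least 21.3-fold). RBP4, the retinol carrier of plasma, rose by 7.25 (SE 0.39). Without either P1-a2 library or without NC replicate 2, 1 member was called lower. Of 47 genes of drug, steroid and retinoid metabolism, 10 were higher and 9 lower, shares near those of all genes. Within it, CYP1A1 and CYP1A2, neighbours on chromosome 15, rose (2.32, SE 0.25, for CYP1A1), whereas CYP1B1 fell from 27.6 and 35.3 CPM to 8.22 and 4.03 (-2.38, SE 0.32). CRABP2, a carrier of retinoic acid, fell by 1.163 (SE 0.058).

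Complement genes, also liver products, were called lower more often than higher. Of 18 tested, 10 were lower and 3 higher, with a median log2 fold change of -0.48. C3, the hub of the cascade, had 31.3 and 25.4 CPM under P1-a2 and 112 and 109 in NC (-1.97, SE 0.089, adjusted p = 7.59e-08). The proteases of the classical pathway fell: C1R from 12.01 and 15.1 CPM to 2.20 and 2.84 (-2.42, SE 0.19) and C1S by 1.58 (SE 0.16). CFB, a protease of the alternative pathway, fell by 1.13 (SE 0.26). The P1-a2 libraries were below both NC libraries for all 4 genes, as for 33.5% of all genes tested. The spans of C1R and C1RL overlap on the same strand, as do those of CFB and C2. Without P1-a2 replicate 2 or NC replicate 2, 1 member was called higher.

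In both lists of transcription factors the falls outnumbered the rises. Of 40 nuclear receptors and cofactors, 7 were higher and 13 lower. Of the 7, 3 had fewer than 10 counts in each NC library and passed the filter through the induced groups. NR1I2, the pregnane X receptor that senses drugs, had 13.1 and 17.6 CPM against 0.335 and 0.164 (5.997, SE 0.29, adjusted p = 1.37e-07). NR0B2, a repressor induced by bile acids, had 2.85 and 2.89 CPM against 0 counts (at least 29.7-fold), and NR1I3, the constitutive androstane receptor, had 3.51 and 3.81 CPM against 3 NC counts, a ratio of 77.8 (95% counting interval 26.3 to 379.6). The fitted log2 fold change of NR1I3 was 6.17 (SE 0.52; 6.88 without NC replicate 1 and 5.55 without NC replicate 2). VDR, the vitamin D receptor, rose by 0.62 (SE 0.057) and RARG, a retinoic acid receptor, fell by 1.07 (SE 0.081). The 13 lower members became 6 without P1-a2 replicate 1 or NC replicate 1 and 7 without P1-a2 replicate 2 or NC replicate 2. Of 29 tested endoderm transcription factors, 6 were higher (3 without NC replicate 1) and 12 lower. GATA6, a zinc finger factor of the foregut, had 50.9 and 54.9 CPM against 72.8 and 82.1 (-0.55, SE 0.083, adjusted p = 4.20e-04), KLF5, of proliferating epithelium, fell by 0.84 (SE 0.088) and FOXQ1 by 0.97 (SE 0.11).

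The largest falls included a mucin, a non-coding RNA and a squamous cell antigen. MUC2, the gel-forming mucin of goblet cells, had 2.23 and 1.38 CPM under P1-a2 and 14.3 and 15.8 in NC, a log2 fold change of -3.08 (adjusted p = 6.70e-07, SE 0.19). The long non-coding RNA H19, an imprinted gene of fetal growth, had 8.56 and 6.68 CPM against 49.2 and 48.0 (-2.68, SE 0.15, adjusted p = 7.75e-07). SERPINB3, a squamous cell antigen with a near-identical neighbour, had 24.5 and 22.1 CPM against 116 and 148 (-2.504, SE 0.12). In these genes the lower NC library stood more than 4-fold above the higher P1-a2 library. SCGB1A1, the secretoglobin of airway club cells, fell from 18.4 and 17.8 CPM to 4.14 and 2.51 (-2.46), the alcohol dehydrogenase ADH7 from 9.71 and 10.11 to 2.32 and 1.43 (-2.41), and the growth factor binding protein IGFBP5 from 11.5 and 9.86 to 1.94 and 2.703 (-2.19). ADH1C fell from 14.3 and 11.2 CPM to 3.42 and 1.54 (-2.37, SE 0.37), and by 3.02 without P1-a2 replicate 1. Its span overlaps ADH1B on the same strand, and the 2 genes are close copies. KRT4, a keratin of wet squamous epithelium, fell from 231 and 237 CPM to 61.8 and 43.7 (-2.15), and B3GNT7, which extends keratan sulfate chains, from 70.8 and 72.2 to 17.6 and 15.1 (-2.13).

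The mucins split into members that rose and members that fell. Of 24 tested mucins and trefoil factors, 9 were higher and 10 lower (6 lower without P1-a2 replicate 2). The transmembrane mucins of the enterocyte surface were among those that rose: beside MUC17, MUC13 had 138 and 149.7 CPM against 10.5 and 8.63 (3.92, SE 0.092, adjusted p = 5.41e-10) and MUC3A rose by 6.77 (SE 0.19), with a near-identical copy of it in the genome. MUC1, the mucin of ductal cells, fell by 2.09 (SE 0.10). MUC4, which binds the ERBB2 receptor, fell from 69.2 and 83.2 CPM to 17.2 and 17.4 (-2.14, SE 0.11), and MUC16, the CA125 antigen, from 9.30 and 13.3 to 2.29 and 1.62 (-2.55, SE 0.23). The gastric gel-forming mucin MUC5AC fell by 3.36 (SE 0.42) and by 4.14 without P1-a2 replicate 1.

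Genes used to sort pancreatic tumours into a classical and a basal-like class moved in both directions in each list. Of 18 tested classical genes, 5 were higher and 8 lower (5 lower without NC replicate 1 or NC replicate 2). But 4 of these 18 had fewer than 10 counts in each NC library and passed the filter through the induced groups. All 4 were higher, and of the other 14, 1 was higher. The adhesion antigens CEACAM5 and CEACAM6 fell by 1.83 (SE 0.12) and 0.50 (SE 0.048), and the annexin ANXA10 by 0.96 (SE 0.11). Of 25 basal-like genes, 6 were higher and 8 lower. The cornified envelope genes SPRR1B and SPRR3 rose by 1.27 (SE 0.068) and 1.71 (SE 0.12), LY6D fell by 1.56 (SE 0.10), and KRT17, a keratin of basal cells, fell by 0.30 (SE 0.06). The simple epithelial keratins KRT8 and KRT18, the largest gains in CPM along with AKAP12, rose: KRT8 had 3416 and 3728 CPM against 1766 and 1570 (1.099, SE 0.063, adjusted p = 3.63e-07) and KRT18 1953 and 2146 against 1054 and 959.6 (1.03, SE 0.061). Their spans overlap on opposite strands, so part of their counts may be shared. KRT13, of wet squamous epithelium, fell from 1592 and 1578 CPM to 916 and 713 (-0.96, SE 0.10). AKAP12, a scaffold for protein kinase A, rose from 143 and 178 CPM to 1340 and 2035 (3.39, SE 0.31). The largest loss in CPM apart from mitochondrial transcripts was AQP3, the water and glycerol channel of the basolateral membrane, from 2004 and 2211 to 1015 and 833 (-1.19, SE 0.089).

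Proteases of the squamous and matrix lists rose steeply in places, though more members of the squamous list were called lower than higher. Of 33 tested cornified envelope and squamous genes, 10 were higher and 14 lower. Of the 10, 3 had fewer than 10 counts in each NC library and passed the filter through the induced groups. The kallikreins KLK6 and KLK7, neighbours on chromosome 19 that shed surface cells, rose by 4.46 (SE 0.28) and 6.38 (SE 0.24). Among 39 tested mesenchymal and matrix genes, 12 were higher (7 without NC replicate 1) and 10 lower. The stromelysin MMP3 rose by 7.38 (SE 0.20) from 0.297 and 0.191 CPM to 36.6 and 43.4, and the collagenase MMP1 by 1.59 (SE 0.16), while the collagenase MMP13 fell by 1.72 (SE 0.099). HSPG2, the basement membrane proteoglycan perlecan, fell from 866 and 952 CPM to 355 and 427 (-1.22, SE 0.086). LUM, a fibroblast marker, rose by 2.55 (SE 0.24) from 1.45 and 0.765 CPM to 6.15 and 6.38, while the sum of the 11 fibroblast markers was 25.6 and 28.01 CPM against 20.1 and 21.3. The part of such cells in the result was not tested. The junction genes CDH1, which codes for E-cadherin, and EPCAM rose by 0.33 (SE 0.05) and 0.68 (SE 0.063), and the tight junction gene CLDN1 fell by 0.49 (SE 0.053).

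Interferon-stimulated genes gave the highest share of falls among the 45 lists. Of 59 tested, 47 were lower and 2 higher (1 without either NC library or without P1-a2 replicate 2), with a median log2 fold change of -0.66. IFI27 had 90.8 and 73.7 CPM under P1-a2 and 290.2 and 296 in NC (-1.84, SE 0.086, adjusted p = 1.79e-07), and IFI6, a mitochondrial antiviral protein, had 44.5 and 37.9 against 135 and 135 (-1.72, SE 0.077, adjusted p = 7.26e-08). Both P1-a2 libraries lay below both NC libraries in these genes, and the replicates of a group lay close together. IFITM1, which blocks viral entry, fell by 1.99 (SE 0.091), though its span overlaps the close copy IFITM2. IFI44L fell by 2.04 (SE 0.20) and TRIM22, an antiviral ubiquitin ligase, from 19 and 24.99 CPM to 5.02 and 5.30 (-2.10, SE 0.15). ISG15, a ubiquitin-like modifier, had a log2 fold change of -0.23 (adjusted p = 0.248, SE 0.14; 0.0413 with only the P1-a2 and NC libraries fitted, 0.0142 without the filter on low counts, 0.0316 and 0.0299 without P2-a8 replicate 1 or 2), and the exonuclease ISG20 rose by 0.77 (SE 0.14).

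In antigen presentation the falls outnumbered the rises. Of 24 tested genes of MHC class I and antigen presentation, 12 were lower and 2 higher (1 without NC replicate 1 or P1-a2 replicate 2). NLRC5, the activator of class I genes, fell from 13.3 and 15.1 CPM to 5.62 and 5.49 (-1.358, SE 0.12), and the immunoproteasome subunits PSMB8 and PSMB9 fell by 0.79 (SE 0.092) and 1.13 (SE 0.12). The peptide transporter TAP1 fell by 0.49 (SE 0.077), and the spans of PSMB8, PSMB9 and TAP1 touch one another. B2M, the shared light chain, had a log2 fold change of -0.1 (adjusted p = 0.278, SE 0.065). Of 12 tested B7 family and related checkpoint genes, 3 were higher and 4 lower. PVR, a ligand of the receptor TIGIT, rose by 1.17 (SE 0.066), CD47, which restrains phagocytosis, fell by 0.57 (SE 0.056) and the galectin LGALS9 fell from 11.2 and 13 CPM to 3.17 and 2.84 (-2.02, SE 0.17).

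Chemokines and cytokines under NF-kB went both ways. Of 39 tested members, 16 were lower (10 without NC replicate 2) and 9 higher. The neutrophil attractants CXCL8 and CXCL1 fell by 1.66 (SE 0.20) and 1.08 (SE 0.15), and so did LCN2, which binds bacterial siderophores (-1.73, SE 0.12). CCL15 had 4.96 and 5.97 CPM against 0 counts (at least 56.5-fold), though its span holds a read-through gene with CCL14. CCL20, an attractant of lymphocytes made by gut epithelium, rose by 1.69 (SE 0.25) and the cytokine IL32 by 3.27 (SE 0.29).

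**Figure D4:**
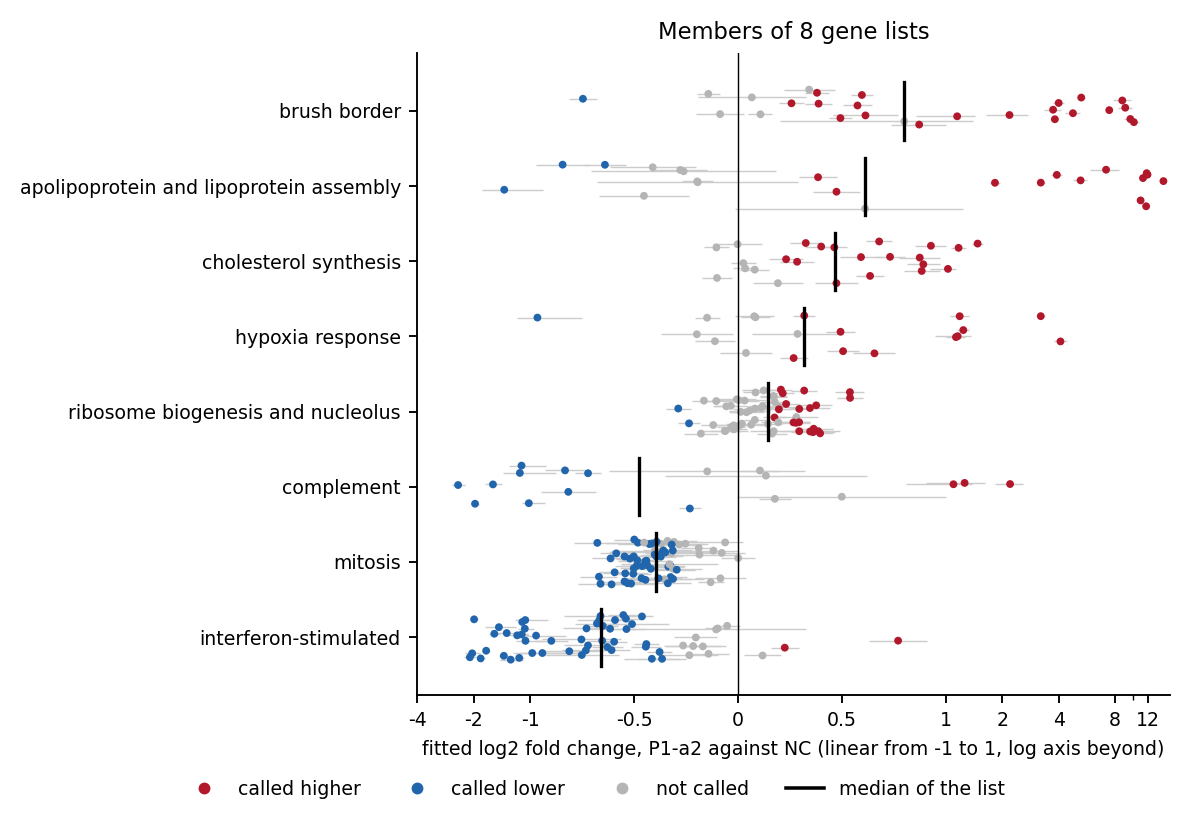
Fitted log2 fold change of each tested member (points, with SE as grey bars) in 8 gene lists, on an axis that is linear between -1 and 1 and logarithmic beyond. Black bars are medians, red points were called higher, blue points lower and grey points neither. The brush border and lipoprotein lists have a long right tail, while the mitosis list is a narrow band left of 0.

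Genes of cell division were lower by small amounts. Of 65 tested mitosis genes, 45 were called lower and 0 higher, with a median log2 fold change of -0.39 and none past a 2-fold change. MKI67, the proliferation antigen, had 567 and 597 CPM under P1-a2 and 717 and 788 in NC (-0.37, SE 0.074, adjusted p = 0.00283). PLK4, which duplicates centrioles, fell by 0.67 (SE 0.089) and the kinetochore genes SPC24 and NUF2 by 0.68 (SE 0.11) and 0.66 (SE 0.11). CCNB1, the mitotic cyclin, had a log2 fold change of -0.19 (adjusted p = 0.541, SE 0.19). Leaving out 1 library at a time left between 32 and 52 members lower. Of 53 genes of DNA replication, 25 were lower and 1 higher, but the count was 6 without NC replicate 1 and 8 without P1-a2 replicate 2. MCM2, a subunit of the replicative helicase, had a log2 fold change of -0.40 (adjusted p = 0.0523, SE 0.13) and passed the threshold with DESeq2 (0.00251), without the filter on low counts (1.49e-07) and with only the P1-a2 and NC libraries fitted (0.00995). Without 1 library its adjusted p ran from 0.00746 (without P2-a8 replicate 1) to 0.279 (without P1-a2 replicate 2). CDKN1A, the p21 inhibitor of cyclin-dependent kinases, had 514 and 627 CPM against 179.7 and 216 (1.53, SE 0.14, adjusted p = 4.02e-04), with the P1-a2 libraries above both NC libraries, and CDKN1B, its relative p27, fell by 0.47 (SE 0.089).

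In ribosome biogenesis the rises outnumbered the falls, while genes of the ribosome itself had few rises. Of 57 tested genes of the nucleolus and ribosome assembly, 20 were higher and 2 lower, with 9 higher without NC replicate 1 and 12 without P1-a2 replicate 2. The assembly factors RRP12 and WDR12 both rose by 0.54 (SE 0.063 and 0.07). Of 76 cytosolic ribosomal proteins, 2 were higher and 12 lower, and of 76 nuclear genes of oxidative phosphorylation 6 were higher and 11 lower, with medians of -0.028 and -0.0068. Over all genes tested, 17.1% were higher and 14.9% lower, so the lower shares of both lists were near that of all genes. With 1 of the P1-a2 or NC libraries left out, at most 1 ribosomal protein was called higher, and the counts went as low as 4 lower ribosomal proteins (without NC replicate 1 or P1-a2 replicate 2), 2 higher oxidative phosphorylation genes (without NC replicate 1) and 4 lower ones (without NC replicate 1 or P1-a2 replicate 2). Of the 13 protein-coding genes of the mitochondrial genome, 5 were lower (3 without NC replicate 1) and 0 higher. MT-CO2, a subunit of cytochrome c oxidase, fell by 0.30 (SE 0.048).

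Stress and growth signals were mixed. Of 19 tested hypoxia response genes, 11 were higher and 1 lower, with a median log2 fold change of 0.32. CA9, a carbonic anhydrase of the cell surface, rose by 4.09 (SE 0.33) from 0.297 and 0.164 CPM to 3.36 and 4.27, and CA12 by 1.24 (SE 0.096). Of 25 NRF2 targets, 8 were higher (5 without NC replicate 1, 4 without NC replicate 2) and 7 lower. Besides HMOX1, the quinone reductase NQO1 rose by 0.65 (SE 0.056), and the peroxidase GPX2 fell by 0.76 (SE 0.11). PHGDH, which opens serine synthesis, fell by 1.18 (SE 0.095). Of 27 Wnt feedback and stem cell genes, 12 were lower and 3 higher. The ligand WNT7B fell by 0.68 (SE 0.073). In the FGF family, the receptor FGFR3 fell by 1.12 (SE 0.068) and the hormone FGF19 by 1.78 (SE 0.30), while SPRY4, a feedback inhibitor of receptor signalling, rose by 1.01 (SE 0.11). ID1, a target of BMP signals, fell by 0.69 (SE 0.084). The EGF, YAP, TGF-beta and laminin lists had members called in both directions and medians between -0.16 and 0.12.

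Where the P1-a2 response differs from that of the other isoform was read from the direct contrast of the P1-a2 and P2-a8 libraries. Its fold changes do not use the NC levels, but the NC libraries entered the filter on low counts, the scaling and the shared spread. The contrast called 3963 genes (22.5%), 2054 higher under P1-a2 (11.6%) and 1909 lower (10.8%). Without P2-a8 replicate 1 it called 2538 genes and without P1-a2 replicate 2 it called 2566. Several intestinal genes were higher under P1-a2. APOA4 had 12.5 and 11.2 CPM under P2-a8, and the P1-a2 libraries were higher by 2.87 on the log2 scale (adjusted p = 1.79e-07, edgeR quasi-likelihood test). VIL1 had 11.9 and 16.8 CPM under P2-a8 and differed by 2.33 (adjusted p = 1.13e-04), and MUC13 had 60.4 and 63.5 and differed by 1.22 (adjusted p = 5.57e-06). By list, 14 of 27 brush border genes and 10 of 23 lipoprotein genes were higher under P1-a2 than under P2-a8. So were 14 of 24 cholesterol synthesis genes, and the share over all genes tested was 11.6%. However, 9 of the 27 and 9 of the 23 had fewer than 10 counts in each NC library. These passed the filter on low counts through the induced groups, so their difference may be fixed in part by the filter. Of the 24 cholesterol synthesis genes, 0 had so few counts. TM7SF2, for example, had 24.8 and 27.99 CPM under P2-a8 (0.74, adjusted p = 4.14e-04).

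The lower end of the response also differed between the isoforms. Of 65 mitosis genes, 51 were lower under P1-a2 in this contrast and 1 was higher, against 10.8% and 11.6% of all genes. MKI67 had 717 and 829 CPM under P2-a8 and was lower under P1-a2 by -0.41 (adjusted p = 0.00283), and the inhibitor CDKN1A had 298 and 355 and was higher under P1-a2 by 0.81 (adjusted p = 0.00909). Of 59 interferon-stimulated genes, 25 were lower under P1-a2 and 3 higher. IFI27 had 117 and 121 CPM under P2-a8 and differed by -0.54 (adjusted p = 0.00155). Of 57 ribosome biogenesis genes, 31 were higher under P1-a2 and 0 lower. C3, at 30.7 and 29.1 CPM under P2-a8, had a difference of -0.081 (adjusted p = 0.581), which did not pass the threshold. SERPINA1 was 1 of 2 plasma and coagulation genes that were lower under P1-a2 in this contrast: it had 14.3 and 13.5 CPM under P2-a8, above the P1-a2 libraries by 1.37 on the log2 scale (P1-a2 minus P2-a8 -1.37, adjusted p = 6.49e-05). HNF4A itself had a difference of -0.33 between the isoforms (adjusted p = 0.217).

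**Figure D5:**
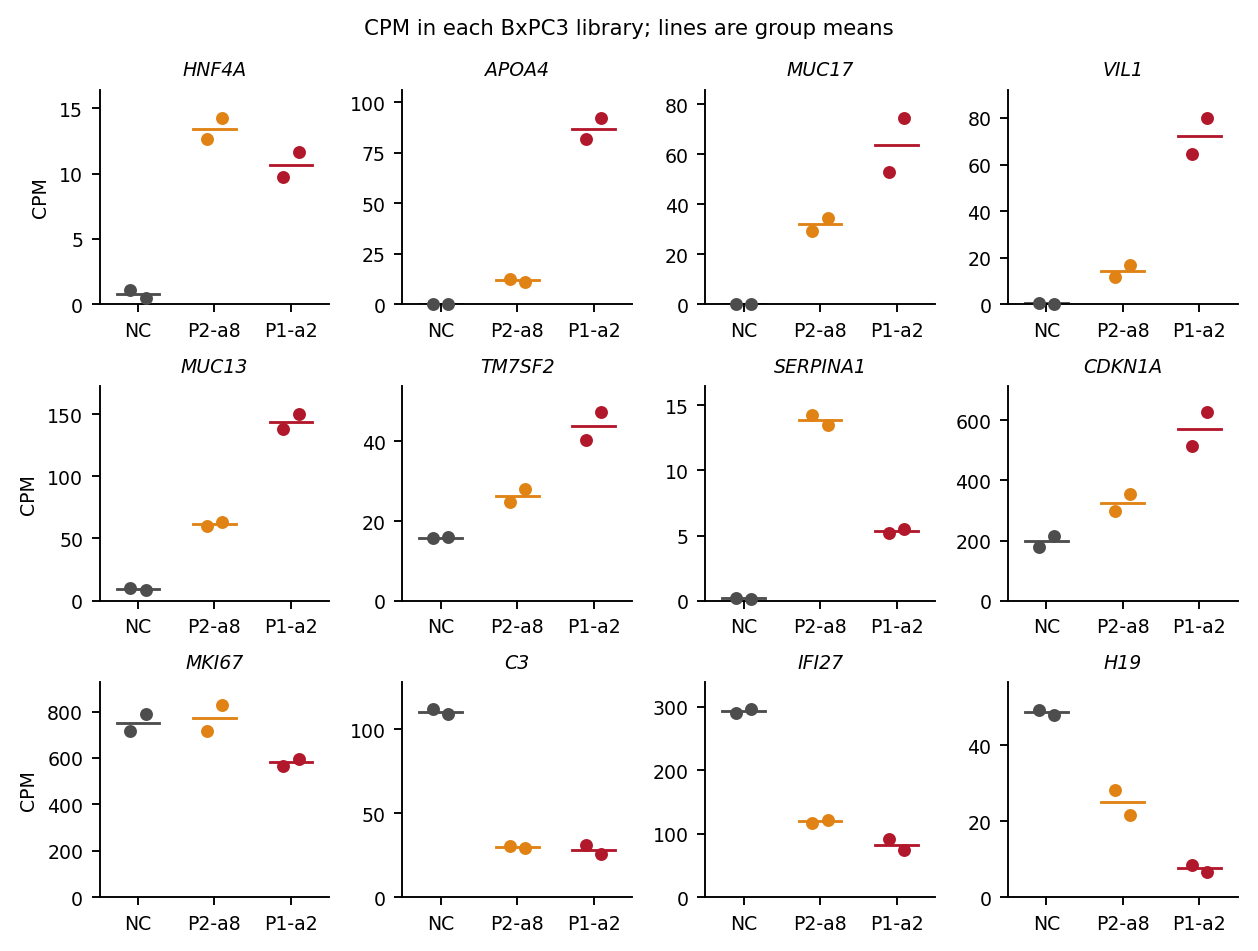
CPM of each BxPC3 library (points) and group mean (lines) for 12 genes in NC, P2-a8 and P1-a2, on linear axes from 0 that differ between panels. For APOA4, MUC17, VIL1, MUC13, TM7SF2 and CDKN1A the P2-a8 libraries lie between NC and P1-a2, for HNF4A and SERPINA1 they lie above P1-a2, for MKI67 they lie with NC and for C3 with P1-a2.

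The same isoform in Panc10.05 gave a response that shared its largest rises and differed in whole pathways. Of the 15 genes that rose most in BxPC3, 15 were also called higher in Panc10.05. Of all genes tested in that line, 62% were called, 31.5% higher and 30.5% lower. Of the 15 that fell most, 6 were expressed enough in Panc10.05 to be tested, and 4 were lower and 2 higher there. The difference in response between the lines, tested as an interaction over 12 libraries, passed the threshold in 7048 of 19372 genes (36.4%), 3898 higher in BxPC3 (20.1%) and 3150 lower (16.3%). Cell line, doxycycline dose, control construct and sequencing project change together between these arms and cannot be told apart. HNF4A in Panc10.05 went from 0.240 and 0.0580 CPM in its control libraries to 10.7 and 12.98 under P1-a2.

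The calls of cholesterol synthesis genes differed in direction between the lines. In BxPC3 17 of 24 genes were higher and 0 lower. In Panc10.05 4 were higher and 14 lower, where 31.5% and 30.5% of all genes tested were. There were 10 genes called higher in BxPC3 and lower in Panc10.05. The response was higher in BxPC3 by the interaction test in 20 of 24 and lower in 0. TM7SF2 rose by 1.48 in BxPC3 and had a log2 fold change of -0.89 in Panc10.05 (difference 2.35, SE 0.16, adjusted p = 7.45e-10), and for MSMO1 the values were 1.17 and -0.19 (difference 1.35, adjusted p = 6.15e-07). The falls of interferon and mitosis genes occurred in both lines and were larger in Panc10.05. Of 57 interferon-stimulated genes tested there, 54 were lower, with a median log2 fold change of -2.43 against -0.66 in BxPC3, and the interaction test called 49 of 59 on that side. Of 65 mitosis genes, 63 were lower in Panc10.05, with a median of -1.28 against -0.39, and 57 differed on that side. Ribosome biogenesis rose more in Panc10.05: 44 of 57 genes were higher there, and 31 of 57 had a lower response in BxPC3. C3 fell in BxPC3 and rose in Panc10.05, from 4.23 and 3.19 CPM to 19.6 and 28.3 (2.68, difference -4.66, SE 0.26, adjusted p = 4.45e-07).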

How the data were processed

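Messenger RNA was measured in 6 BxPC3 libraries (P1-a2, P2-a8 and NC, 2 each) and, for the line comparison, in 6 Panc10.05 libraries. The values are raw read counts per gene as the authors deposited them, whole numbers without normalization. Per the submitters' processing notes, the tools were cutadapt 1.16, STAR 2.7.9a, featureCounts 1.6.3 and DESeq2 1.36.0 with GRCh38, listed without roles. The strand setting and annotation release are not given in the sources used here, so counts of overlapping, antisense or near-identical genes are uncertain. Samples were grouped by their labels. Every line of the BxPC3 table (62703) names a gene, and no column belonged to an unlisted sample. Symbols matched 99.88% of identifiers, and GENCODE v29 gave positions for 92.94%.

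Counts were filtered (filterByExpr), scaled by TMM and tested with edgeR 4.0.16 (glmQLFit, robust, then glmQLFTest; R 4.3.3), with all 3 BxPC3 groups sharing 1 spread and Benjamini-Hochberg adjustment over 17635 genes. A called gene has an adjusted p under 0.05. Standard errors are of the fitted log2 fold change, and CPM use TMM-scaled library sizes. In these libraries 3 counts equal 0.0811 to 0.112 CPM. Folds against NC libraries at 0 counts use 3 counts per library as a floor, and against 1 to 3 NC counts a ratio with an exact 95% interval is given; both cover counting error only. Replicates differed beyond sampling noise (chi-square over degrees of freedom 6.13 to 8.07), so no library was a duplicate.

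Genes named in the text are the 15 largest rises and falls in fold change (at least 5 CPM on average, no overlap), the 10 largest gains and losses in CPM, up to 5 called members per direction of each list (at least 1 CPM), anchor genes set in the lists, and the HNF4 genes. Some genes that this rule names are not reported here. The comparison, the 45 gene lists and the 8 marker lists were chosen with earlier results of these data known, so lists are described by counts beside the share over all genes, without a test of the list. Alternatives were other scalings, no filter, DESeq2 1.42.0, a replicate block, a fit of the P1-a2 and NC libraries only, a fold limit and leaving out each library. Models were tested on simulated counts. The AsPC-1 libraries were not used here. Promoters come from RefSeq (GRCh38.p14).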

Additional observations from a re-analysis of the deposited data

Results flagged for a closer look

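The P1-a2 response was compared between BxPC3 and Panc10.05 by an interaction test over 12 libraries (edgeR quasi-likelihood test, p-values adjusted over 19372 genes, of which 36.4% were called), and results are given here as the BxPC3 log2 fold change minus that of Panc10.05. Line, doxycycline dose, control construct and sequencing project differ together between the arms and cannot be told apart. The genes are the largest changes of BxPC3 with reads in every group, HNF4A and HNF4G, and named genes called in opposite directions by at least 2-fold in both lines. The fold change of HNF4A was smaller in BxPC3 by a difference of -2.35 (adjusted p = 0.00216). Its levels under P1-a2, given above, were similar in the lines, and the control levels behind the difference were low in both. HNF4G fell more in BxPC3, with a difference of -0.66 (adjusted p = 0.0185).

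Among large rises, the difference was 7.26 for ANPEP (adjusted p = 4.40e-04), 3.60 for C2orf88 (adjusted p = 3.75e-05) and 3.59 for MOGAT3 (adjusted p = 0.00138), each larger in BxPC3 and each resting on 4 or fewer NC counts in that line. Among large falls, MUC4 fell more in BxPC3, with a difference of -1.13 (adjusted p = 0.0066), and TRIM22 fell more in Panc10.05, with a difference of 1.61 (adjusted p = 0.0175). MUC16 and B3GNT7 fell in BxPC3 and rose in Panc10.05, with differences of -3.16 (adjusted p = 5.82e-08) and -3.77 (adjusted p = 1.54e-07).

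Opposite calls of at least 2-fold were found for C3 (difference -4.66, adjusted p = 4.45e-07), LGALS9 (-4.16, adjusted p = 3.78e-12) and CTSE (-2.60, adjusted p = 7.18e-08), all lower under P1-a2 in BxPC3 and higher in Panc10.05. The reverse held for SERPINA1 (5.98, adjusted p = 2.31e-14), which rose in BxPC3 and in Panc10.05 went from 45.5 and 47.3 CPM in the control libraries to 22.1 and 18.6 under P1-a2. It held too for NOG, a BMP antagonist (2.24, adjusted p = 6.14e-05), and for VIM, the intermediate filament of mesenchymal cells (2.89, adjusted p = 0.00433). The BxPC3 rise of VIM, from 36.6 and 48.3 CPM in NC to 82.9 and 109.9 under P1-a2 (log2 fold change 1.18, adjusted p = 0.0302), lost its call with any 1 of the 4 libraries left out (adjusted p 0.0548 to 0.120) and without the filter on low counts (0.126). The BxPC3 rise of NOG (adjusted p = 0.0109) lost its call without NC replicate 1 (0.08039) or P1-a2 replicate 2 (0.08211).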

How the results depend on the processing

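The count of called genes between P1-a2 and NC (5652) was 5650 with relative log expression scaling, 5687 with total counts alone, 6146 without the filter on low counts, 4803 with DESeq2 and 5632 when only the P1-a2 and NC libraries were fitted. With total counts alone the split turned from 3016 higher and 2636 lower to 2745 and 2942, as the median over all genes went from -0.012 to -0.041 on the log2 scale, so small changes in either direction depend on the scaling. Leaving out 1 library at a time gave 3899 (without NC replicate 1) to 5759 (without P2-a8 replicate 2), and 66.35% of the calls were kept in the former. Where 1 library was left in a group, it was assumed to vary like the others. Requiring also a fold change of at least 2 left 1242 genes for P1-a2 against NC, 526 of 3963 for P1-a2 against P2-a8 and 2468 of 7048 for the difference between the lines. Leaving out 1 library gave 2538 to 3640 genes in the second comparison and 5974 to 7129 in the third. The fitted log2 fold change of HNF4A ran from 3.30 to 4.51 with 1 library left out. Of the 154 named genes refitted besides HNF4A, which leave out those of the other observations, 0 reversed under these alternatives, and those that lost a call or moved by over 1.5 times with a library left out are given beside their values. DESeq2 gave other fitted fold changes for genes at 0 NC counts, whose folds are printed only as lower bounds.

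The replicate block called 7333 genes for P1-a2 against NC (3751 higher, 3582 lower), 5992 for P1-a2 against P2-a8 and 7763 for the difference between the lines. Of the 5652 calls of P1-a2 against NC, 99.98% were kept. MCM2 (adjusted p 2.39e-07), ISG15 (0.00415) and B2M (0.0444) passed the threshold with the block. Same-numbered libraries deviated together with correlations of 0.131, 0.073 and 0.131, not all over 0.1. No label ties the numbers to a batch, so whether same-numbered libraries share one is not known. List counts grew under the block, for example from 25 to 44 lower genes in DNA replication and from 5 to 11 higher laminin genes. With 2 libraries per group and 3 counts worth about 0.1 CPM, changes of genes below that level were not detectable.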

Other observations

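Beyond the lists, the 42 genes that had 0 counts in both NC libraries and at least 1 CPM under P1-a2 included several further genes of the gut and of steroid and amine handling, named here after their values were seen. The butyrophilin-like genes BTNL3 and BTNL8, known on gut epithelium, had 2.32 and 2.73 CPM and 2.92 and 3.001 CPM in the P1-a2 libraries. SLC6A4, the serotonin transporter, had 2.95 and 2.57 CPM, and HSD3B1, a steroid dehydrogenase, had 4.05 and 4.08 CPM. The potassium channel KCNJ16 had 2.698 and 3.785 CPM, the endocytic adaptor BIN2 4.61 and 3.97 CPM, and G6PC1, the last enzyme of gluconeogenesis, 1.35 and 1.03 CPM. The P1-a2 libraries held at least 12.3-fold more of G6PC1 and at least 44.4-fold more of BIN2 than NC libraries set at 3 counts each.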
